A study of Mus musculus with 6 samples.

Results

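The 6 genes Ndufa13, Trim25, Eef1akmt1, Rbmxl2, Cdk7 and Rhoa, of 53734 genes with an annotated start on chromosomes 1 to 19 and X, were examined for where their CpG methylation switched from near 0% to near 100%. DNA was from mouse pluripotent stem cell lines of 3 groups with 2 libraries each, all labelled wild type and strain 129S2/SvPasCrl. Advanced pluripotent stem cells (ASCs) are blastocyst-derived lines grown with activin A, BMP4, CHIR99021 and LIF. According to the study ASC lines carried a GOF-GFP or Stella-GFP reporter on a mixed background. Its text does not state which line gave the bisulfite libraries. Naive embryonic stem cells (ESCs) were kept in 2i/LIF, and the primed epiblast stem cells (EpiSCs) are akin to the postimplantation epiblast. The study described the lines as female, and each group represents cultured lines and no embryo. The genes were chosen by measured values of these same libraries. Ndufa13, Trim25, Eef1akmt1 and Rbmxl2 were selected on the difference between EpiSCs and ASCs, and Cdk7 and Rhoa on the difference between EpiSCs and ESCs. Those differences are therefore given as descriptions, and where they enter a count of calls nothing is read from them.

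Methylation of cytosine in CpG dinucleotides over a CpG-rich promoter is a stable mark of silenced genes, and most CpG-rich promoters of active genes are kept free of it. Genomes of naive cells in 2i/LIF lose methylation over most of their length, and the epiblast regains it around implantation. Inside gene bodies methylation is common in transcribed genes, so the same level has a different setting at a promoter and in an intron. The 6 genes have unrelated roles. Ndufa13 encodes an accessory subunit of mitochondrial complex I, Trim25 a ubiquitin ligase that activates the antiviral RNA sensor RIG-I, and Eef1akmt1 a lysine methyltransferase of the elongation factor eEF1A. Rbmxl2 is an intronless autosomal copy of the X-linked gene Rbmx and encodes an RNA-binding protein of male germ cells. Cdk7 encodes the kinase of the general transcription factor TFIIH, and Rhoa a small GTPase that controls the actin cytoskeleton. RNA was not measured in these libraries.

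For each gene 1 region stood for the selecting contrast, the one with the largest difference among the start windows or tiles at that gene. For Trim25, Eef1akmt1 and Ndufa13 it was the window from 1000 bp before to 100 bp after 1 annotated start, and for Rbmxl2, Cdk7 and Rhoa a tile of 2 kb. To show how unlike these regions are in sequence, the 300 bases of 5 of the regions that hold the most CpG sites and overlap no untranslated region are printed 5′ to 3′ along the gene, from the RefSeq GRCm38 sequence, with each CpG in capitals. The number of CpG sites in the 300 bases was 60 at Rbmxl2, 14 at Trim25, 8 at Eef1akmt1, 7 at Cdk7 and 6 at Rhoa.
Rbmxl2, chr7:107210009-107210308, plus strand: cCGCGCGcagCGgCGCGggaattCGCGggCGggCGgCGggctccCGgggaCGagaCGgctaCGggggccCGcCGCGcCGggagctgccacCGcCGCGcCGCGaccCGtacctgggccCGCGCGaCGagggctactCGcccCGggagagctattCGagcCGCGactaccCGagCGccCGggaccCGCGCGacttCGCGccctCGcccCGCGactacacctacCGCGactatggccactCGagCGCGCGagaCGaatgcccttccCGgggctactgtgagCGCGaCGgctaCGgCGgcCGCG
Trim25, chr11:88999059-88999358, plus strand: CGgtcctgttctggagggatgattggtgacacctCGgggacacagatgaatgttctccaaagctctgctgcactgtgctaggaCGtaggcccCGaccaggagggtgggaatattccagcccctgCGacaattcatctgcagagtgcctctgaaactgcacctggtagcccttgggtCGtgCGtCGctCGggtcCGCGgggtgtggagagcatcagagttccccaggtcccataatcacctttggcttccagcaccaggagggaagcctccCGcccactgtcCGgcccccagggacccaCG
Eef1akmt1, chr14:57571811-57572110, minus strand: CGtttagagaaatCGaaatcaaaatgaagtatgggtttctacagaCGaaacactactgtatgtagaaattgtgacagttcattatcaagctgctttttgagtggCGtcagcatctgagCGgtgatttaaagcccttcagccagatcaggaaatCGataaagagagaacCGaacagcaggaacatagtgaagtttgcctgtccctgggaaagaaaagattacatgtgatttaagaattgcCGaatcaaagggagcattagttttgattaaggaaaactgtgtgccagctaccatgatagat
Cdk7, chr13:100725152-100725451, minus strand: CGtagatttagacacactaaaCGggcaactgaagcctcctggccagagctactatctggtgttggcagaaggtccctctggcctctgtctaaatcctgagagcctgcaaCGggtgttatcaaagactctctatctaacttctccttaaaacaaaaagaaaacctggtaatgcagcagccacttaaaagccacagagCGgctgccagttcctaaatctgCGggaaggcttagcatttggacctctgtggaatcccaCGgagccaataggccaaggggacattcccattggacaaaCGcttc
Rhoa, chr9:108308670-108308969, plus strand: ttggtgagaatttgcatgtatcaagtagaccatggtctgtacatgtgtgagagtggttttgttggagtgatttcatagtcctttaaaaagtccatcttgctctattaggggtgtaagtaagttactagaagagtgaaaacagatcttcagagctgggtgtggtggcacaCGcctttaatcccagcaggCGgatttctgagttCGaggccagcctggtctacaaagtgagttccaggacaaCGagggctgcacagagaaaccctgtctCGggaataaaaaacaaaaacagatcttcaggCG
The stretch at Rbmxl2 lies in its coding sequence. The Ndufa13 region, which lies mostly in Tssk6, an intronless gene for a testis kinase that is transcribed from the other strand, is not printed. The stretches at Trim25 and Eef1akmt1 lie upstream of their starts and overlap exons of the noncoding RNAs Gm11496 and 1700039M10Rik. The stretch at Cdk7 is intronic. The stretch at Rhoa overlaps an exon of a retained-intron transcript and is intronic in the coding transcripts.

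Depth was similar in the 6 libraries, with between 63803799 and 74925271 CpG reads, and each listed CpG was read 2.96 to 3.46 times on average. Reads were therefore summed over regions, and each read of a CpG in a region is called an observation. A level is an average over the cells of a culture, so a share of cells and a share of alleles within cells cannot be told apart. Over chromosomes 1 to 19 and X the level was 17.9% and 18.2% in ESCs, 81.0% and 80.2% in EpiSCs and 59.8% and 60.2% in ASCs. The labels were compared with promoter methylation of 5 marker genes. The naive markers Zfp42 and Tcl1 read at most 5.56% in ASCs and ESCs and at least 93.5% in EpiSCs, and the shared pluripotency genes Pou5f1 and Sox2 read at most 1.32% in the 6 libraries. Dppa3, a naive marker with too few observations for a test, read 97.3% and 100% in EpiSCs and 11.9% and 6.98% in ASCs.

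In the selected regions the ASC and ESC libraries were near 0% and the EpiSC libraries near 100%, with no overlap between them. At Ndufa13 (chromosome 8, 69902458 to 69903558) the EpiSC libraries read 98.2% and 98.0%, the ASC libraries 0.698% and 0.470% and the ESC libraries 0% and 0.133%, with between 598 and 752 observations. At Trim25 (chromosome 11, 88998403 to 88999503) both ASC and both ESC libraries read 0% and the EpiSC libraries 96.0% and 98.7%. Taken as independent observations, the counts of 0 of 135 and 0 of 149 in ASCs allow levels of up to 2.22% and 2.01%. Those of 0 of 115 and 0 of 94 in ESCs allow up to 2.61% and 3.19%. Sites on the same read are counted separately, so the true limits are higher. Of the 6 regions, the one at Trim25 had no methylated observation outside EpiSCs. At Eef1akmt1 (chromosome 14, 57571482 to 57572582) ASCs read 1.96% and 1.05%, ESCs 0% and 0.775% and EpiSCs 96.7% and 97.7%, with at least 84 observations.

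The 3 tiles behaved in the same way. At Rbmxl2 (chromosome 7, 107210001 to 107212000) ASCs read 0.304% and 0%, ESCs 0.661% and 0.491% and EpiSCs 98.5% and 96.7%. Coverage at this tile differed between the groups, with 1.02 and 1.16 reads per CpG in EpiSCs, 5.77 and 4.66 in ESCs and 5.02 and 4.40 in ASCs. The EpiSC levels there still rest on 134 and 152 observations, and the part of coverage in the result was not tested. At Cdk7 (chromosome 13, 100724001 to 100726000) ASCs read 1.39% and 1.18%, ESCs 0% in both libraries and EpiSCs 98.7% and 98.0%. At Rhoa (chromosome 9, 108308001 to 108310000) ASCs read 6.90% and 2.33%, ESCs 0% in both libraries and EpiSCs 98.6% and 98.1%. Observations at Cdk7 and Rhoa numbered between 43 and 85 per library. A count of 0 in an ESC library there allows a level between 4.11% and 4.76% if observations were independent, and a higher one otherwise. This limits how small a level could be seen.

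**Figure D1:**
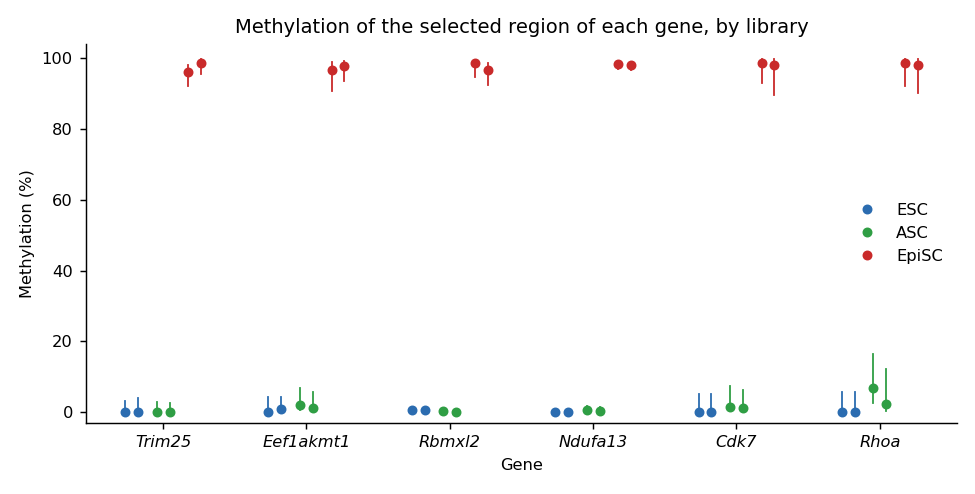
Methylation (%) of the selected region of each gene, with 1 point per library (ESC blue, ASC green, EpiSC red) and a vertical line for its 95% Wilson interval, which covers counting error only. The interval treats observations as independent and is too narrow where sites share a read. The 12 EpiSC points lie between 96.0% and 98.7%, and the 24 ASC and ESC points between 0% and 6.90%.

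Single CpG sites with enough reads followed their region. Of the 111 sites of the Ndufa13 window, 100 had at least 5 reads in each group. All 100 were at 80% or more in EpiSCs, 78 of them at 100%, and 92 were at 0% in ASCs. At the other 5 genes between 10 and 21 sites reached this depth. These were 15 of 39 at Trim25, 21 of 27 at Eef1akmt1, 12 of 19 at Cdk7 and 10 of 17 at Rhoa. At Rbmxl2 they were 14 of 131, so most of its sites were not read singly. All of these were at 80% or more in EpiSCs and at 20% or less in ASCs. No site of intermediate level in EpiSCs was found in the selected regions at this depth.

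The group that each selection left out was described next. ASCs were not used to select Cdk7 and Rhoa. Among 21054 tiles of 2 kb with EpiSC means over 90% and ESC means under 10%, the median ASC level was 36.8%, and 1546 tiles (7.34%) had ASC means under 10%. The tiles at Cdk7 (1.28% ± 0.150, SD, n = 2) and Rhoa (4.61% ± 3.23, SD, n = 2) were among these, and both lay below 7.68%, the 5th percentile. They ranked 2 and 3 of 445422 tiles by the EpiSC minus ESC difference, so the 21054 tiles were mostly less extreme. The part of this selection in the low ASC levels was not tested. ESCs were not used to select the other 4 genes. All 1003 start windows with EpiSC means over 90% and ASC means under 10% had ESC means under 10%, as had 99.6% of the 1552 tiles with that pattern, so the low ESC levels at these 4 genes are shared with that background. In the 6 regions the ASC mean minus the ESC mean lay between -0.42 and 4.61 percentage points. The highest value was at Rhoa, with 4 of 58 and 1 of 43 methylated observations in ASCs. When only sites read 5 or more times in a library were averaged without weights, ASCs were at 0% there, like ESCs. Coverage in ASCs was 3.41 and 2.53 reads per CpG, so that mean leaves out sites with fewer reads. With the ASC libraries summed, 8 of the 10 sites with 5 reads per group were at 0%, and the highest was at 14.3%. The 0% therefore does not show that methylation was absent in ASCs. The selection had fixed low ASC levels at 4 genes and low ESC levels at Cdk7 and Rhoa, so the differences between ASCs and ESCs are descriptions.

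Across gene bodies and flanks of 5 kb, 103 of 353 windows of 500 bp had at least 20 observations in every library. Windows with an ASC mean under 10% and an EpiSC mean over 90% numbered 26 (25.2%), against 1.35% of all 630233 windows tested. The genes were chosen for this pattern, so the share is a description. Of the 26, 9 were at Trim25, 4 each at Ndufa13, Rbmxl2 and Cdk7, 3 at Eef1akmt1 and 2 at Rhoa. The ESC mean was under 10% in all 26, as it was in 8376 of the 8489 windows with this pattern among all windows tested. Calls needed an adjusted p under 0.05 together with a distance of 20 points or more between group means. ASCs were called higher than ESCs in 50 of the 103 windows (83.4% of all windows), EpiSCs higher than ESCs in 95 (93.2%) and ASCs lower than EpiSCs in 85 (52.8%). The last 2 contrasts include those that selected the genes, and nothing is read from their counts. Low ASC levels in part of the windows also followed from the selection, so the count of ASCs above ESCs is a description too. Over all windows, the count of ASCs below EpiSCs was 332511, but it dropped to 182222 when EpiSC replicate 1 was left out and to 200694 when replicate 2 was.

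The measured length of the switched sequence differed between the genes. It was measured as the run of windows around the selected region with ASC means under 20% and EpiSC means over 80%, over windows with at least 10 observations in every library. The run was 9500 bp at Trim25, between -3375 and 6124 bp from its main start. Over this run ASCs read 3.01% and 2.96%, ESCs 1.04% and 0.795% and EpiSCs 95.4% and 97.5%, with between 755 and 949 observations. At Rbmxl2 the run was 2500 bp and took in the whole gene, which read 0.481% and 0.443% in ESCs, 98.4% and 98.9% in EpiSCs and 0.226% and 0% in ASCs. Of the 20 windows with a CpG at Rbmxl2, 5 had enough observations, and the run holds these 5. Its full length could therefore not be measured. At Eef1akmt1 it was 1500 bp, between -388 and 1111 bp from the main start, and at Ndufa13 2500 bp, ending 557 bp after it. At Cdk7 it spanned 4500 bp that began 1439 bp inside the gene, and ASCs read 11.2% and 10% over it. At Rhoa it spanned 6500 bp from 2372 bp inside the gene, with 1.78% and 1.91% in ESCs, 96.2% and 98.2% in EpiSCs and 20.5% and 14.6% in ASCs. At Trim25 the run skipped 5 windows with too few observations, and 1 of these had an ASC mean of 25% and an EpiSC mean of 75%, outside the limits of the run. The Rhoa run rests on 2 windows and the Cdk7 run on 4, and the windows skipped between them had too few observations. Where those had reads, their ASC means lay between 5.56% and 40.4% at Rhoa and between 0% and 42.9% at Cdk7, so neither span was low in ASCs throughout.

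**Figure D2:**
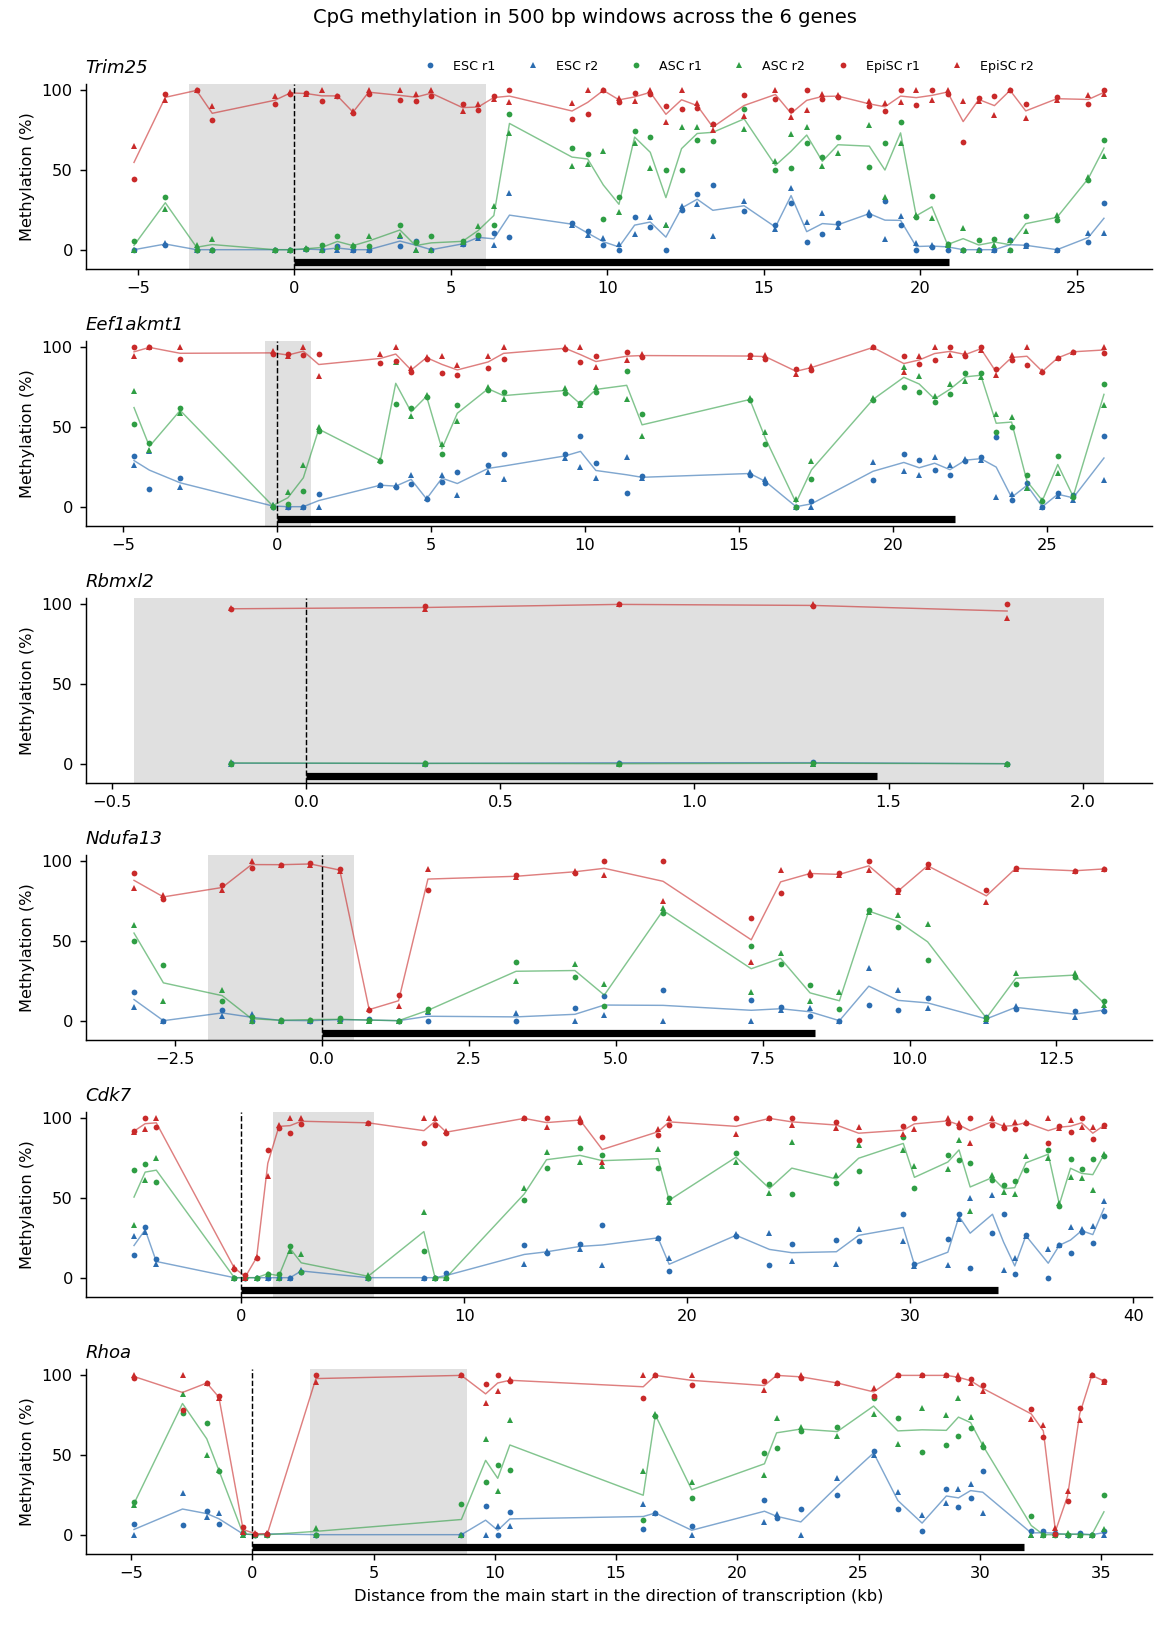
Methylation (%) of 500 bp windows with at least 10 observations in every library, by distance (kb) from the main start (dashed line) in the direction of transcription, with circles for replicate 1, triangles for replicate 2 and lines for group means (ESC blue, ASC green, EpiSC red). Black bars mark the gene body and grey shading the switched run, which lies over the main start in Trim25, Eef1akmt1, Rbmxl2 and Ndufa13 and inside the gene, from 1439 bp in Cdk7 and 2372 bp in Rhoa.

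Outside these runs ASC levels ranged widely, with window means from 0% to 82.5%. Of 78 tested windows there, ASCs were called above ESCs in 50 (64.1%, against 83.4% of all windows), EpiSCs above ESCs in 70 (93.2% of all windows) and ASCs below EpiSCs in 60 (52.8% of all windows), and the last 2 counts come from contrasts that selected the genes. The median window outside the runs read 9.17% in ESCs, 95.1% in EpiSCs and 49.1% in ASCs. By the median ASC level the genes ranked as Eef1akmt1 with 67.5%, Cdk7 with 62.0%, Trim25 with 42.6%, Rhoa with 24.8% and Ndufa13 with 22%. Rbmxl2 had no tested window outside its run. Each of the 50 calls lay outside the runs, and none of the 25 tested windows inside them was called between ASCs and ESCs. The runs were defined by low ASC levels, which leaves little room for such a call.

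Further runs with the same pattern were found at 5 of the 6 loci. At Rbmxl2 no window outside the run had enough observations to show one. Among all windows with at least 20 observations, 24687 of 630233 (3.92%) had this pattern, and how many other genes hold such runs was not counted. Some of the runs were single windows with few reads, such as 1 at Ndufa13 with 3 CpG sites and 13 to 26 observations per library. The 1 at Cdk7 lay inside the gene and the 1 at Trim25 crossed its end. At Ndufa13, 2 of 4 lay inside the gene, 1 crossed its end and 1 lay in the flank. At Eef1akmt1, 1 of 3 lay inside the gene, and the others lay in the flanks, as did both at Rhoa. At Trim25 a run of 3000 bp (chromosome 11, 89020001 to 89023000) began just before the 3′ end of the gene at 89020294 and lay mostly downstream of it. It read 1.26% and 1.39% in ESCs, 92.1% and 90.6% in EpiSCs and 7.10% and 6.82% in ASCs. At Cdk7 a second intronic run of 1000 bp (chromosome 13, 100721501 to 100722500), 8439 bp inside the gene, read 0% in both ASC libraries, 1.06% and 0% in ESCs and 93.7% and 96.9% in EpiSCs. At Eef1akmt1 a window of 500 bp in an intron (chromosome 14, 57554501 to 57555000) read 0% and 5% in ASCs, 0% in both ESC libraries and 86.7% and 83.3% in EpiSCs, over 5 CpG sites. Between both Trim25 runs the group means of tested windows in ASCs lay between 26.9% and 82.1%.

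Annotated starts told the main promoters apart. The 6 genes had 21 distinct annotated starts in GENCODE M21 and RefSeq, of which 13 reached 40 observations in every library. The main start was taken from the transcript tags of the annotation, and starts within 500 bp of it were counted as the same promoter. ASCs were called higher than ESCs at 1 of the 13 starts (31.0% of 112291 starts tested), EpiSCs higher than ESCs at 8 (47.6%) and ASCs lower than EpiSCs at 8 (32.3%). The last 2 contrasts selected the genes. For the first, the selection of Ndufa13, Trim25 and Eef1akmt1 by start windows with low ASC levels left little room for a call. Several of these windows also overlap, so nothing is read from any of these counts. The switch lay at the main start itself in 4 genes. This place follows in part from the selection, which used start windows for Trim25, Eef1akmt1 and Ndufa13, so it is a description. Of 14419 main starts of protein-coding genes with enough observations, 96 (0.666%) had ASC means under 10% and EpiSC means over 90%, and the 4 belong to these.

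Trim25 has 1 promoter, with starts at 88999376 and 88999403. The window of the main start read 0% in both ASC libraries, 0% in both ESC libraries and 95.4% and 98.6% in EpiSCs. A start of the noncoding RNA Gm11496 lies 60 bp inside Trim25 on the other strand, and its window read 0.270% and 0.287% in ESCs, 97.0% and 98.6% in EpiSCs and 0.735% and 0.533% in ASCs. Methylation in EpiSCs therefore covered the starts of both genes. The other Gm11496 start, at -2832 bp from the Trim25 start, had too few observations for a test and read 89.7% and 92.9% in EpiSCs and 0% and 6.90% in ASCs.

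Eef1akmt1 shares its promoter with the noncoding RNA 1700039M10Rik, which starts 2 bp away on the other strand. The main start of Eef1akmt1 read 0% and 0.787% in ESCs, 96.5% and 97.6% in EpiSCs and 2.06% and 1.09% in ASCs. The start of 1700039M10Rik read 1.69% and 6.72% in ASCs, 0% in both ESC libraries and 95.7% and 96.6% in EpiSCs. A pair of alternative Eef1akmt1 starts, 1683 and 1688 bp inside the gene, had intermediate levels in ASCs. Their shared CpG sites read 4.17% and 0% in ESCs, 95.7% and 90.3% in EpiSCs and 34.5% and 40.8% in ASCs, and they had fewer than 40 observations in 2 libraries and were not tested. The alternative starts thus differed from the main start in the ASC level, while the EpiSC levels were over 90% at each of them.

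Rbmxl2 has a single annotated start, at 107209445. Its window read 0.500% and 0% in ESCs, 97.4% and 95.4% in EpiSCs and 1.12% and 0.820% in ASCs. The 500 bp on each side of the start read 97.6% and 97.5% in EpiSCs and at most 0.427% in the 4 other libraries.

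The 2 annotations place the main start of Ndufa13 at different sites. GENCODE and 1 RefSeq transcript start at 69902558, and the RefSeq Select transcript starts at 69902020, 538 bp further along the gene. The window of the GENCODE start read 98.2% and 98.0% in EpiSCs, and that of the RefSeq Select start 97.6% and 96.6%, while ASCs and ESCs read at most 0.971% at either. Both windows reach upstream into Tssk6. The whole Tssk6 gene (69902184 to 69903518) read 0.121% and 0.342% in ESCs, 98.3% and 97.6% in EpiSCs and 0.806% and 0.381% in ASCs. A start of Yjefn3 sits at -154 bp from the GENCODE start and read 98.1% and 98.2% in EpiSCs. The other Yjefn3 starts, 8575 and 8583 bp after the GENCODE start, lie in the flank past the 3′ end of Ndufa13.

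Downstream of the RefSeq Select start EpiSC methylation dipped and then returned. The CpG at 69901996, the last at 80% or more before the dip, had 14 of 14 methylated reads in EpiSCs and lies 24 bp inside the RefSeq Select transcript. The next site, at 69901888, had 6 of 16, and the site at 69901843 had 1 of 10. The fall thus took place within 153 bp. Further along the gene, sites were highly methylated again, with 7 of 8 reads at 1642 bp and 11 of 11 at 1912 bp from the GENCODE start. The 500 bp that follow (69901344 to 69901843) read 2.49% and 3.14% in EpiSCs with 201 and 223 observations, against 95.9% and 95% in the 500 bp upstream of the RefSeq Select start. These 500 bp hold the second exon of Ndufa13 with its start codon. The ESC libraries read 0.813% and 0% over the same 500 bp, and the ASC libraries 0.633% and 0%. The window of the Tssk6 start spans the edge and read 27.3% and 27.7% in EpiSCs, which averages a methylated and an unmethylated side.

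At Cdk7 and Rhoa the main promoters stayed unmethylated in all 3 groups. The 500 bp on each side of the Cdk7 start (100730939) read 0% in both ASC and both ESC libraries and 2.25% and 1.48% in EpiSCs, with between 100 and 270 observations. The standard window of this start, which reaches further upstream, had too few observations in 1 ASC library and read 2.22% and 0% in ESCs, 6.36% and 3.82% in EpiSCs and 2.53% and 7.14% in ASCs. The 500 bp on each side of the Rhoa start (108306129) read 0.215% and 0% in ESCs, 0.954% and 1.26% in EpiSCs and 0.308% and 0% in ASCs, with between 305 and 629 observations. The starts of Tcta, which is transcribed away from Rhoa, read at most 0.903% in the 6 libraries. The alternative Rhoa promoter, with starts 668 and 700 bp inside the gene, read at most 0.904%. The selected tiles at these 2 genes lie outside both promoters.

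**Figure D3:**
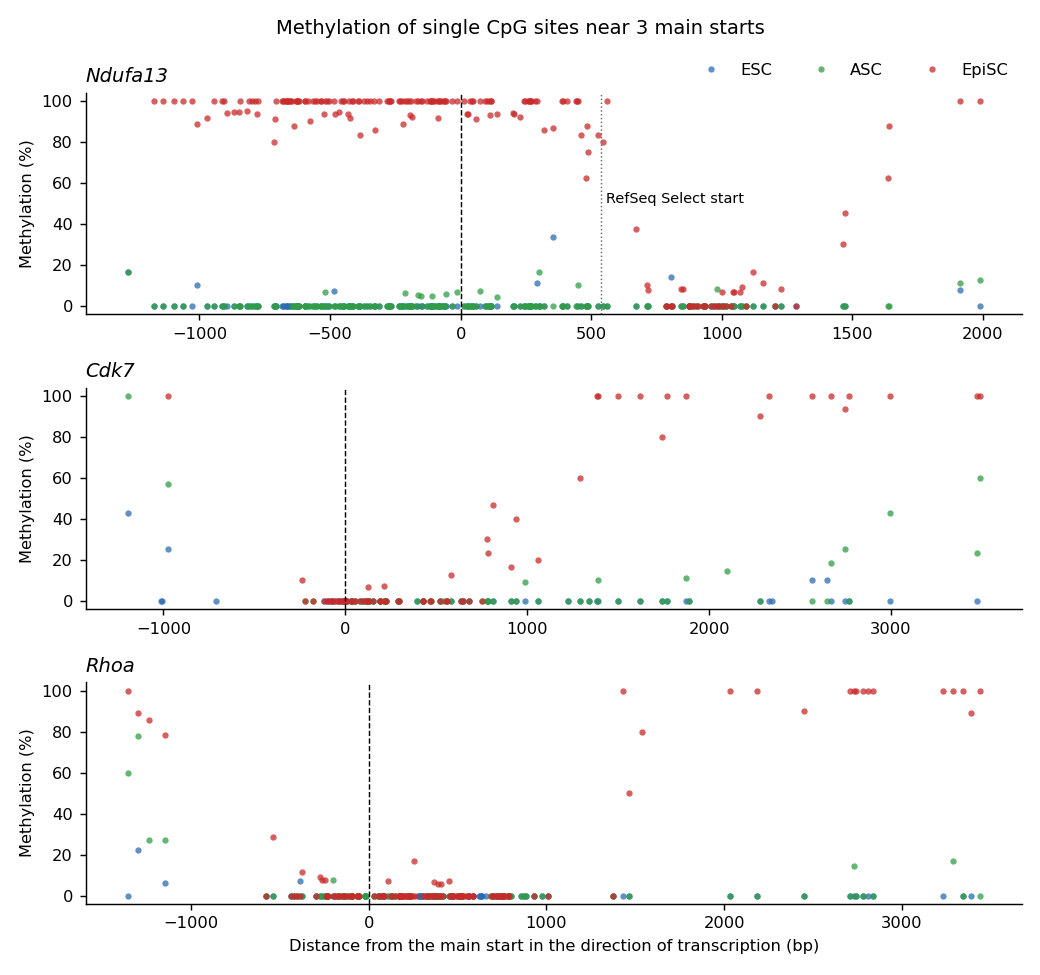
Methylation (%) of single CpG sites with at least 5 reads in a group (ESC blue, ASC green, EpiSC red; reads of 2 libraries summed) by distance (bp) from the main start (dashed line) in the direction of transcription. EpiSC sites fall from 14 of 14 methylated reads at 562 bp to 1 of 10 at 715 bp in Ndufa13, where the dotted line is the RefSeq Select start, and first reach 80% with at least 5 reads at 1384 bp in Cdk7 and 1431 bp in Rhoa.

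The edge of EpiSC methylation was narrow at Rhoa and wide at Cdk7. At Rhoa the site at 108307503, 1374 bp from the start, had 0 of 5 methylated reads in EpiSCs, and the site at 108307560 had 5 of 5, a distance of 57 bp. The 2 sites after it had 3 of 6 and 4 of 5. The 84 sites with at least 5 EpiSC reads from the start to the edge had 6 methylated of 895 reads (0.670%). At Cdk7 the last site under 20% was at 100730030 and the site at 100729555 had 8 of 8 methylated reads, with sites of mixed levels over the 475 bp between them. ASCs had 0 methylated reads at the 4 sites around the Rhoa edge, of 16 in all. The 300 bases around the Rhoa edge, with the 4 CpG sites in capitals, are intronic in the coding transcripts. They hold 1 CpG before the edge and 3 after it.
Rhoa edge, chr9:108307382-108307681, plus strand: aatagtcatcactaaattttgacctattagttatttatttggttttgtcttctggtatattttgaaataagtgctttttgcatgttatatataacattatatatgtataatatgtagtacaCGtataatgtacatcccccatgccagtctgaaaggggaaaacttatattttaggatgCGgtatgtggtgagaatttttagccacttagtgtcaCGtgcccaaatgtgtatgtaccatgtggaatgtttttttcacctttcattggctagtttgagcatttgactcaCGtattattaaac

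At internal starts of Cdk7 and Rhoa the ASC libraries read over 60%. The Cdk7 start of a retained-intron transcript, 18999 bp inside the gene, read 25% and 19.6% in ESCs, 92.7% and 96.0% in EpiSCs and 62.1% and 69.6% in ASCs. This was the 1 start of the 13 at which ASCs were called higher than ESCs (43.5 points, adjusted p = 0.000243, limma-moderated quasi-binomial model). The Rhoa start 24431 bp inside the gene was not tested and read 28.6% and 31.6% in ESCs, 94.6% and 97.0% in EpiSCs and 67.2% and 64.3% in ASCs. The pseudogene Gm37568, 25117 bp inside Rhoa, read 95.7% and 100% in EpiSCs and 72.5% and 66.7% in ASCs. The other internal Cdk7 start, 11569 bp inside the gene, was not tested and read 15.2% and 28.3% in ESCs, 91.2% and 94.4% in EpiSCs and 72% and 91.2% in ASCs, so 1 ASC library there was at the EpiSC level.

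Downstream of Rhoa lies Gpx1, which encodes a glutathione peroxidase, with 5 annotated starts. EpiSC levels were lower at each further start in the direction of transcription, from 70.4% and 72.7% at the start nearest Rhoa to 17.9% and 18.3% at the one farthest from it. ASCs and ESCs read at most 5.06% at the 5 starts. The antisense RNA Gm37401 read 25.8% and 23.6% in EpiSCs and at most 1.27% in the other libraries. The windows of these starts overlap, so the 6 values share CpG sites.

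**Figure D4:**
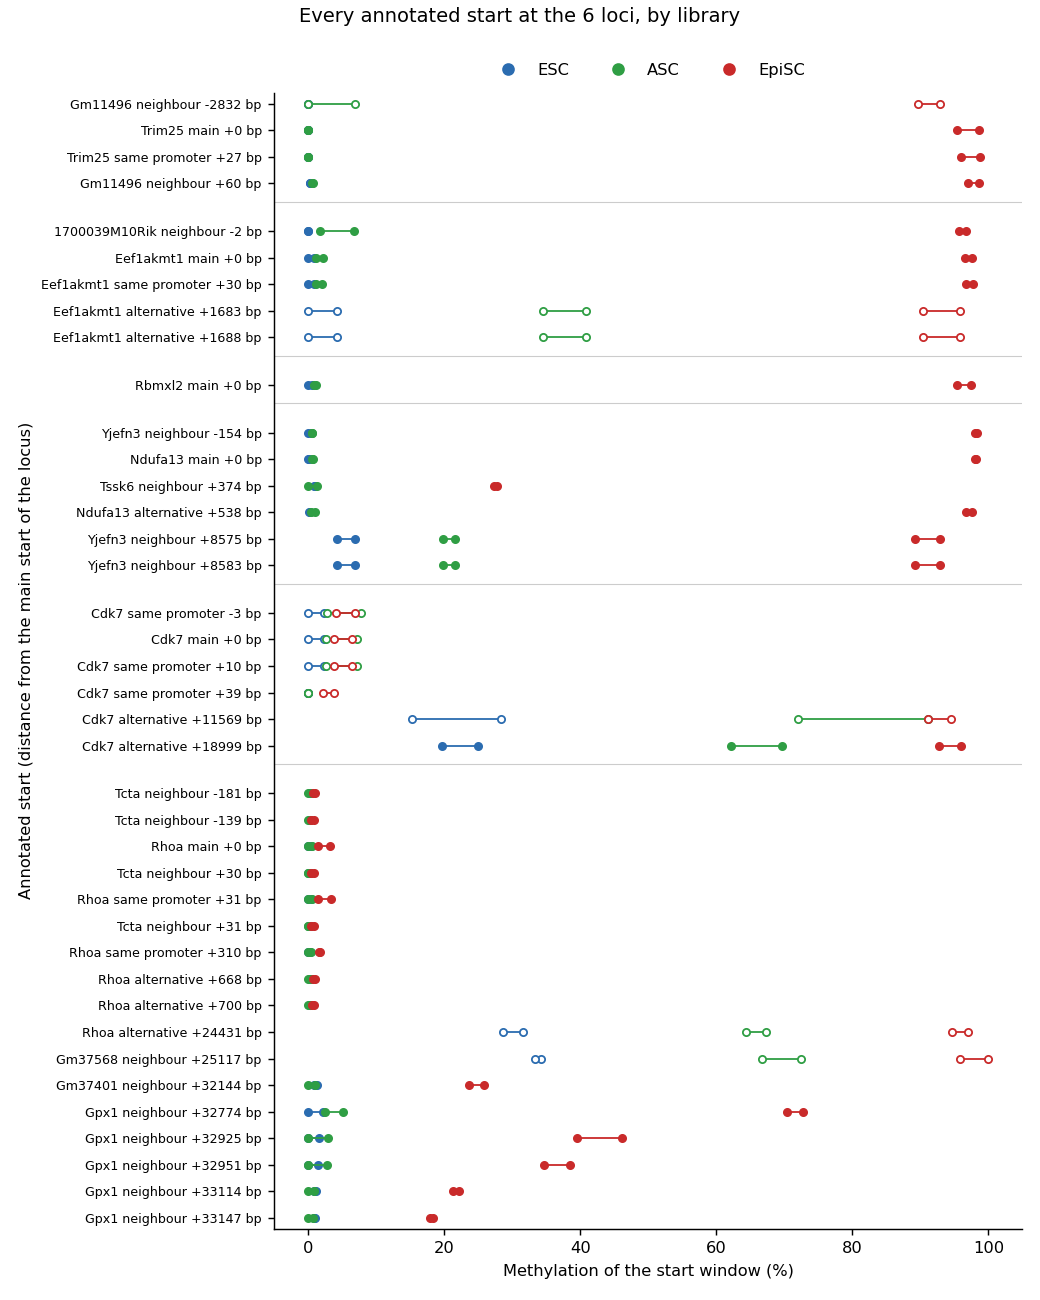
Methylation (%) of the window of each annotated start at the 6 loci, with 1 point per library joined within a group (ESC blue, ASC green, EpiSC red), filled where every library had at least 40 observations. Labels give the gene, the kind of start and the distance (bp) from the main start. EpiSC levels are at least 95.4% at the main starts of Trim25, Eef1akmt1, Rbmxl2 and Ndufa13 and at most 6.36% at those of Cdk7 and Rhoa.

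CpG density differed widely among the 6 regions. It was 10.1 CpG sites per 100 bp at Ndufa13, 6.55 at Rbmxl2, 3.54 at Trim25, 2.45 at Eef1akmt1, 0.95 at Cdk7 and 0.850 at Rhoa. The median was 3.72 over 14419 main start windows and 2.77 over the 96 with ASC means under 10% and EpiSC means over 90%. Over 445422 tiles it was 1.15, and over the 1552 tiles with that pattern 1.55. The Ndufa13 window was above the 95th percentile of start windows (8.54), and the tiles at Cdk7 and Rhoa were at or below the 25th percentile of tiles (0.95). Rbmxl2 was above the 95th percentile of tiles (2.50). Of 447 tiles with 4 to 8 CpG sites per 100 bp and EpiSC means over 90%, 101 (22.6%) had ASC means under 10%, against 196 of 88451 (0.222%) with fewer than 1. The share of repeat sequence, given as lower-case bases in the reference, was between 4.36% and 24.9%, and the median tile had 20.2%.

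The protein-coding genes whose main start was most like the mean of the 6 regions over the 6 libraries were 2210016F16Rik, 4933428G20Rik, Trhde, Trap1a and Isoc2b. Likeness was the root mean square distance in percentage points. It was 0.681 for 2210016F16Rik, which read 0% and 1.09% in ESCs, 98.9% and 98.5% in EpiSCs and 1.27% and 0.552% in ASCs. For the other 4 it was between 0.984 and 1.41. In all, 66 of the 14419 main starts, without the 6 genes and their neighbours, lay within 5 points and 203 within 10 points.

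Genes related to 5 of the 6 were read at their main starts, against 14419 main starts. Calls of ASCs above ESCs made up 17.4% of these, calls of EpiSCs above ESCs 37.0% and calls of ASCs below EpiSCs 24.4%. The median difference over these starts was 3.01 points for ASCs minus ESCs and -6.71 points for ASCs minus EpiSCs. The lists include the genes they belong to, so the counts of EpiSC contrasts and the medians for ASCs minus EpiSCs hold Ndufa13, Trim25, Eef1akmt1 and Rbmxl2 themselves, whose calls follow from their selection. The lists were chosen with results of these data known.

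The list for Ndufa13 held 13 genes with an Ndufa symbol, most of which encode accessory subunits of complex I. ASCs were called above ESCs at 1, EpiSCs above ESCs at 5 and ASCs below EpiSCs at 4. The median for ASCs minus EpiSCs was -6.12 points. Ndufa5 read 11.1% and 6.85% in ESCs, 71.4% and 69.5% in EpiSCs and 29.4% and 33.3% in ASCs. The X-linked Ndufa1 read 40.8% and 43.8% in EpiSCs and Ndufa9 37.6% and 35.2%, with ASCs at most 9.33% at either. The study cites an inactive X chromosome in female EpiSCs and reports none in female ASCs. The part of X inactivation in the Ndufa1 level was not tested. Ndufa8 passed against ESCs alone, with 24.1% and 19.9% in EpiSCs. Ndufa4 and Ndufa11 were not called and read at most 3.35%. After Ndufa13 the highest EpiSC level of the list was that of Ndufa5.

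The list for Trim25 held 7 annotated genes of RIG-I signalling. ASCs were called higher than ESCs at 1, EpiSCs higher than ESCs at 5 and ASCs lower than EpiSCs at 5, with a median of -27.2 points for ASCs minus EpiSCs. Rnf135 encodes Riplet, another ubiquitin ligase that acts on RIG-I, and its main start read 0% and 2.60% in ESCs, 91.8% and 94.1% in EpiSCs and 6.45% and 1.25% in ASCs. Like at Trim25, both ASC libraries were under 10% and both EpiSC libraries over 90%. The sensor gene Ddx58, which encodes RIG-I itself, read 31.4% and 51.1% in EpiSCs and 0% and 4.29% in ASCs, and the adaptor gene Mavs 25.2% and 34.9% in EpiSCs with at most 4.35% in ASCs. Dhx58 was methylated in ASCs too, at 62.5% and 69.5%, with 24.7% and 25.5% in ESCs and 90.4% and 88.9% in EpiSCs. Ifih1 and Zc3hav1 were not called and read at most 18.3%.

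Of 10 genes of the Cdk-activating kinase and TFIIH, 7 were tested. Cdk7 itself, its cyclin gene Ccnh and the assembly factor gene Mnat1 had too few observations. Mnat1 read 32.6% and 44.4% in ASCs, the second of these over 9 observations, with 6.38% and 0% in ESCs and 13.2% and 22% in EpiSCs. EpiSCs were called higher than ESCs at 2 and ASCs lower than EpiSCs at 1, with a median of -6.27 points. Gtf2h2 passed both, with 4.40% and 2.13% in ESCs, 51.7% and 60.6% in EpiSCs and 15.9% and 14.1% in ASCs. Gtf2h4 passed against ESCs, with 29.4% and 27.3% in EpiSCs. The helicase genes Ercc2 and Ercc3 were not called and read at most 18.3%.

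Of 5 annotated genes for methyltransferases of eEF1A, EpiSCs were called higher than ESCs at 3 and ASCs lower than EpiSCs at 2. Beside Eef1akmt1 this was Eef1akmt2, with 50% and 27.3% in EpiSCs and 16.0% and 15.6% in ASCs. Mettl13 was called against ESCs, but its EpiSC libraries differed, at 8.72% and 39.7%. Eef1akmt3 and Eef1akmt4 were not called and read at most 1.32%.

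For the family of Rbmxl2, the X-linked parent Rbmx and its relative Rbmx2 had too few observations for a test. They read 46.5% and 28.6% in EpiSCs at Rbmx and 38.0% and 50.7% at Rbmx2, and at most 10.6% in the other libraries. Both lie on the X chromosome, and the part of X inactivation in their EpiSC levels was not tested. Rbmxl1 read at most 1.60%, so the autosomal copies Rbmxl1 and Rbmxl2 stood at opposite ends in EpiSCs. Of 11 autosomal genes with testis expression that are copies of X-linked or other parent genes, 7 were tested. ASCs were called higher than ESCs at 3, EpiSCs higher than ESCs at 5 and ASCs lower than EpiSCs at 3. Rpl10l read 97.9% and 98.7% in EpiSCs and 34.6% and 30.6% in ASCs, and Cetn1 and Rpl39l read at least 71.2% in ASCs. Cstf2t and Utp14b were not called and read at most 11.5%. Tssk6 was called in both contrasts with EpiSCs, with 27.3% and 27.7% in the window of its start and over 97% across the gene in EpiSCs.

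**Figure D5:**
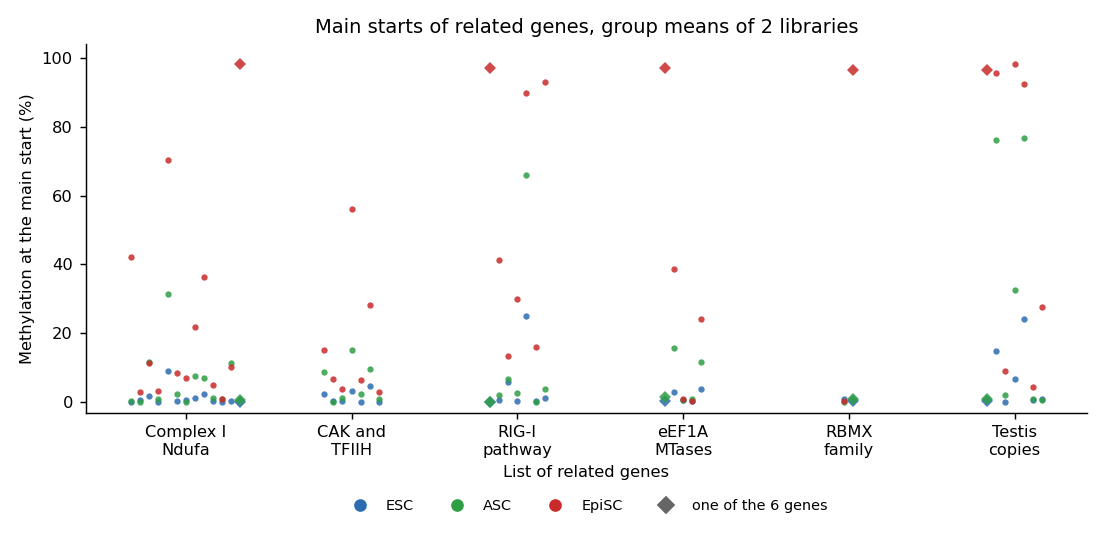
Methylation (%) at the tested main starts of related genes, by list, with 1 point per gene and group (mean of 2 libraries; ESC blue, ASC green, EpiSC red) and diamonds for Ndufa13, Trim25, Eef1akmt1 and Rbmxl2. Genes of each list are spread side by side in the order of the list. Cdk7 had too few observations and is not plotted. The EpiSC diamonds lie above 96%.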

How the data were processed

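Whole-genome bisulfite libraries made by post-bisulfite adaptor tagging from 2 biological replicates per group were used. The authors trimmed reads, aligned them with Bismark 0.16.3, removed duplicates and derived methylation with MethPipe (version not given in the sources used here). Deposited files give for each CpG, with both strands combined, a methylated fraction and a read count. Methylated reads were recovered as fraction times count, and their positions were CpG sites of GRCm38. Reads were summed over windows from 1000 bp before to 100 bp after each GENCODE M21 or RefSeq start (at least 40 observations in every library), over tiles of 2 kb and over windows of 500 bp (at least 20). Groups were compared by a quasi-binomial model with dispersions moderated by limma 3.58.1 in R 4.3.3, two-sided, with Benjamini-Hochberg adjustment over all starts or windows. The 3 contrasts share libraries. Calls took an adjusted p of 0.05 and 20 points. Intervals and limits of a count of 0 cover counting error only. They treat observations as independent, though CpG sites on the same read are counted separately, so they are too narrow. With 2 libraries per group, p-values apply to these samples only. The dispersion behind each drew on all regions tested and was not allowed under 1. The genes, lists and named genes were chosen with earlier results of these data known. Named genes were the 6, genes with a start in their bodies or flanks, of each list those called and up to 2 not called, and the 5 most like genes. A list of related genes and 1 sequence are not reported here.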

Additional observations from a re-analysis of the deposited data

How the results depend on the processing

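Of 147 values recomputed under alternatives, 130 held and 17 did not, where a count held within 1.5 times and a level within 1 SD of its group. Levels with 1 library left out are among the 130 but could not move past 1 SD with 2 libraries, and the ASC level at Rhoa then ranged from 2.33% to 6.90%. With at least 20 observations per start, ASCs were called higher than ESCs at 4 of 20 starts. With at least 100, the calls were 0 for ASCs over ESCs, 2 for EpiSCs over ESCs and 2 for ASCs under EpiSCs, of 7 starts. With at least 10 observations the window calls were 107, 180 and 154 of 189 windows, and with at least 40 they were 9, 25 and 24 of 32, of which 10 switched. The number of regions tested changed with these minimums, and so did the share called. ASCs were called above ESCs at 59586 of 142995 starts with at least 20 observations and at 5706 of 57791 with at least 100, and in 1210596 of 1386009 windows with at least 10 and 118590 of 173282 with at least 40. For EpiSCs above ESCs these counts were 82271, 13528, 1334872 and 140688, and for ASCs below EpiSCs 53167, 9899, 668309 and 89689. As unweighted means over CpG sites with at least 5 reads, the selected regions read 97.9% in EpiSCs at Ndufa13, 3.97% in ASCs at Eef1akmt1, 0.481% in ASCs and 100% in EpiSCs at Cdk7, and 0% in ASCs and 96.9% in EpiSCs at Rhoa. The cause was not tested. Rbmxl2 gave no EpiSC value there because no site had 5 reads in either EpiSC library taken alone, although 14 sites had 5 over both. Leaving out each library in turn, the window calls ranged from 48 to 49, from 95 to 95 and from 70 to 85 (over all windows down to 182222 for the last, from 332511, without EpiSC replicate 1), and the switched windows from 26 to 27. Deviations of libraries with the same replicate number showed almost no correlation over windows (0.00019, -0.0032 and -0.0028). These deviations include counting error, so the values cannot exclude a pairing. A replicate block left the calls at 1, 8 and 8 starts and 50, 95 and 85 windows. Observations per region were fewest at Cdk7 and Rhoa, with 43 to 85 per library, and reads per CpG at Rbmxl2 in EpiSCs, with 1.02 and 1.16.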

Other observations

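Motifs that hold a CpG were searched on both strands of the 6 selected regions. CACGTG was held by 17.9% of 21681 main start windows and 27.1% of 445422 tiles of 2 kb. GCGGGAA was held by 11.8% and 6.99%, and TGCCGC by 25.6% and 20.4%. The YY1 motif, held by 1.43% of main start windows, was not found in the 6 regions. CACGTG was found once, just upstream of the Trim25 main start (chromosome 11, 88999355 to 88999360). Its CpG had 0 of 4 methylated reads in ASCs, 0 of 6 in ESCs and 9 of 10 in EpiSCs. GCGGGAA was found at Ndufa13 (chromosome 8, 69903148 to 69903154), where its CpG had 0 of 7, 0 of 8 and 10 of 10 in the same order of groups, and in the Cdk7 intron (chromosome 13, 100725228 to 100725234), with 0 of 8, 0 of 7 and 6 of 7. Further matches of GCGGGAA at Trim25 and Rbmxl2 had no EpiSC read, and TGCCGC at Rbmxl2 had 2 of 2 methylated EpiSC reads. A match describes the letters of the sequence, and binding was not measured.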
